A study of Mus musculus with 17 samples.

Results

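Immediate early genes are switched on within minutes of a stimulus, without new protein synthesis, and their messenger RNAs are short-lived. Neuronal activity, growth factors, stress and inflammation raise them through calcium, cAMP and the MAP kinases, which act on the transcription factors CREB and SRF that already sit at their promoters. In the cochlea they are used as marks of recent activity of sensory cells and auditory neurons and of the response to injury. The 10 genes described here were chosen by name from the 35285 genes of the expression table (mm10), and all 10 had a row with values in all 17 libraries. They are Fos, Fosb, Jun and Junb, whose proteins pair up as the transcription factor AP-1, the zinc finger factors Egr1 and Egr3, the orphan nuclear receptor Nr4a1, the ATF/CREB family factor Atf3, the nuclear regulator Ier2, and Dusp1, a phosphatase that switches off MAP kinases.

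Each library came from the cochlear RNA of 1 wild-type male C57BL/6J mouse of 8 weeks, a strain that carries an age-related hearing loss allele of Cdh23. The control group (n = 3) received saline and no noise. The NE group (n = 7) heard noise for 2 h, between 8 and 16 kHz and at a level of 100 dB SPL, and the brimonidine group (n = 7) had the same noise and 3 intraperitoneal injections of 1 mg/kg brimonidine, an agonist of α2-adrenergic receptors, on the day before, the day of and the day after exposure. Cochleae were taken 2 days after the noise, so that the first minutes and hours of the response to that noise lie outside the sampling. The study states that mice of each group had hearing tests with sound on that day and were then killed. It gives xylazine and ketamine as the anesthesia for such tests. A response to the tests can thus lie inside the sampling, and its part in the values was not tested. The labels call the tissue cochlear cells and the cell type interstitial cells. Hair cell markers were present in all groups, with Myo7a at a median of 4.80 FPKM without noise, 5.14 in NE libraries and 5.46 in brimonidine libraries. The summed FPKM of 10 such markers had medians of 58.5 for control, 53.6 for NE and 55.9 for brimonidine libraries. Of those tested against control, 1 of 7 for NE and 1 of 8 for brimonidine was called lower, Atp2b2 in both. The shares of all genes called lower were 5.49% and 5.56%.

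The values are FPKM, fragments per unit of exon length, scaled to the library's total. Libraries held between 14457733 and 18288854 counted fragments, with medians of 15181390 for control, 17547119 for NE and 17868172 for brimonidine libraries. Control libraries differed from the rest in their makeup. Of 15 markers of cerebellar and hindbrain neurons, 14 passed the filter of 1 FPKM in 3 libraries, most of them only with the control libraries, where they were high. Just 5 reached 1 FPKM in 3 or more NE libraries and 6 in 3 or more brimonidine libraries, and these 5 and 6 were called lower than control. The summed FPKM of the 15 was 291 in control 1, 780 in control 2 and 299 in control 3, but between 21.3 and 34.4 in the NE libraries and between 22.9 and 104 in the brimonidine libraries. Among the defining ones, Gabra6, a receptor subunit of cerebellar granule cells, had medians of 36.9 FPKM for control, 0.220 for NE and 0.187 for brimonidine libraries. Control 2 also stood apart in neutrophil markers, whose sum was 10396 FPKM against 46074 in control 1 and 48450 in control 3. Its sums were also above those of both other controls for spiral ganglion neurons (418 FPKM against 161 in control 1 and 139 in control 3), Schwann cells (406 against 164 and 170), central nervous system glia (354 against 174 and 211), supporting cells (358 against 121 and 179), erythroid cells (10890 against 2917 and 1789), bone (2342 against 1168 and 1124) and skeletal muscle (885 against 329 and 383). The same held for hair cells (74.8 against 55.8 and 58.5), endothelium (89.3 against 56.0 and 58.1) and fibroblasts (1572 against 732 and 926). For macrophages and monocytes and for B and plasma cells its sums were below those of both other controls. Among markers at 1 FPKM or more in at least 3 NE libraries, 3 of 6 glial and 2 of 9 spiral ganglion markers were called lower than control and 4 of 11 muscle markers higher, when 3.29% of all such genes were called lower and 0.27% of all genes tested higher. With brimonidine, by the same rule in its libraries, these counts were 4 of 6, 3 of 9 and 1 of 11, when 3.28% were called lower and 0.169% higher. The counts without control 2 took all markers of these lists past the ordinary filter, some of which passed it only with the help of the controls. They are thus not on the same base as the counts before. For NE, 2 of 7, 0 of 9 and 9 of 11 were called, beside 2.2% of all genes lower and 0.181% higher. For brimonidine, 3 of 7, 2 of 10 and 5 of 11 were called, beside 2.9% and 0.116%. The part of these lists in the members' differences was not tested. Changes against the control group are therefore given without control 2 as well for each member called. In such bulk RNA, fewer cells of a type and less RNA per cell cannot be told apart.

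The promoters of the 3 members that differed most from the control group, and that of Junb, which did not pass the test, are shown because immediate early genes are known for signal-driven promoters. The bases lie upstream of the gene and run from 5′ to 3′ toward the start, in the RefSeq sequence of GRCm38.p6, and capitals mark the core of the cAMP response element, TGACG or its complement CGTCA. Fos is at chr12:85473640-85473889 on the plus strand, Nr4a1 at chr15:101266596-101266845 on the plus strand, Dusp1 at chr17:26508520-26508722 on the minus strand and Junb at chr8:84978749-84978998 on the minus strand. The stretch of Dusp1 is shorter because it stops where the gene begins in the expression table.
Fos: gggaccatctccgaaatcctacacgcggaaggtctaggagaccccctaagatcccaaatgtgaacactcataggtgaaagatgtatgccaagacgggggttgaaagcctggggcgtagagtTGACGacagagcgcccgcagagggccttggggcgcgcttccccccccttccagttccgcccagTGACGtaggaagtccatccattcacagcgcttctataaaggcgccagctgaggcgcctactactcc
Nr4a1: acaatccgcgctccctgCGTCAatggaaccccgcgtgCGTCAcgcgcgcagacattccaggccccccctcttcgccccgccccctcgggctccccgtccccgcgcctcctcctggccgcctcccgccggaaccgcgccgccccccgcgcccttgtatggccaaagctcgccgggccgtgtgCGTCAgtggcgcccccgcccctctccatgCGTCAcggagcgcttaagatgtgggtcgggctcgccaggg
Dusp1: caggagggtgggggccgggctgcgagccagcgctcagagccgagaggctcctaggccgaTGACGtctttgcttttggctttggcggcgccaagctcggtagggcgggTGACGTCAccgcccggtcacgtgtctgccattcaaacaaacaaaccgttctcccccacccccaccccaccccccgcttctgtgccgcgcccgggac
Junb: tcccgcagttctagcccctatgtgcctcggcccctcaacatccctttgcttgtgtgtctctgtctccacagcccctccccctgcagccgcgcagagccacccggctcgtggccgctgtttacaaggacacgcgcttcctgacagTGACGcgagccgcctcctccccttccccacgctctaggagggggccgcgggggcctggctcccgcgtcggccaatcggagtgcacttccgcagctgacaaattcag
These stretches held 2 cores in Fos, 4 in Nr4a1, 3 in Dusp1 and 1 in Junb. In Dusp1, 2 of the 3 overlap and form the full palindromic element TGACGTCA. RefSeq promoters were at hand for 7 members, and a core lay in the 250 bases before the RefSeq start of 6 of them, Fos, Fosb, Junb, Nr4a1, Atf3 and Dusp1 but not Jun, while 17.8% of all 32851 promoters held it. The full element TGACGTCA was in 1 of the 7, Dusp1, and in 1.55% of all promoters. The letters TATAAA, read on both strands, were found in Fos among the 7 and in 12.4% of all promoters. The CArG box of SRF and the AP-1 site TGANTCA were in none of the 7 windows, against 1.47% and 6.75% of all promoters. In the expression table the gene begins 6 bases further upstream for Fosb, 47 for Dusp1 and 34706 for Atf3, so that the window of Atf3 lies inside the gene as listed there. A match describes the letters only, and sites further upstream lie outside these windows.

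Levels of the members spanned a wide range. Junb had the highest mean over the 17 libraries, 56.6 FPKM, and Ier2 followed with 49.5 FPKM. These neighbours did not differ beyond their spread, since Junb was the higher of the pair in 11 of 17 libraries. Dusp1 came next with 23.2 FPKM, then Jun with 17.3, Nr4a1 with 13.9 and Fos with 13.0, and Nr4a1 exceeded Fos in only 9 of 17 libraries. Egr1 had a mean of 7.02 FPKM, Atf3 of 6.09 and Egr3 of 3.42. Fosb was the lowest at 0.350 FPKM, below Egr3 in all 17 libraries. In control 2 the order was another, with Nr4a1 at the top and Fos behind it, and these 2 genes made up 21.4% and 19.0% of the summed FPKM of the members there.

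**Figure D1:**
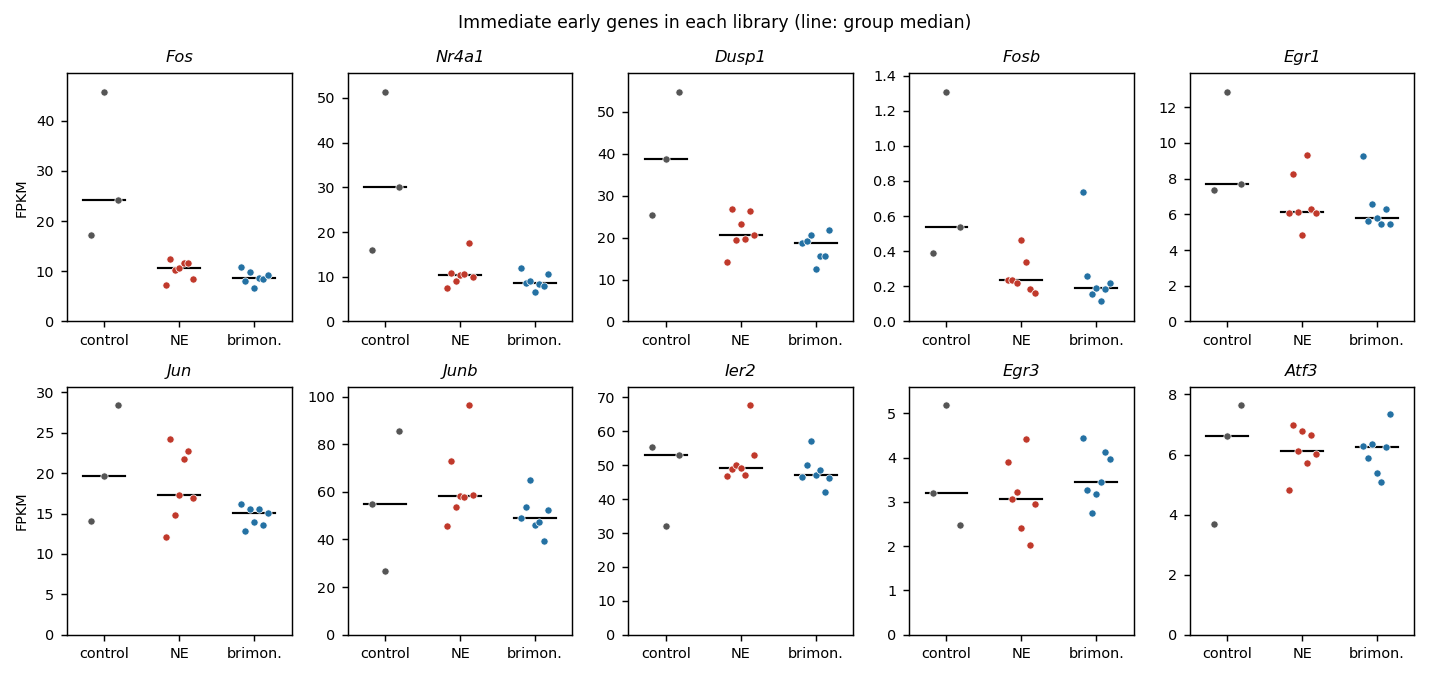
FPKM (vertical axis, linear) of each of the 10 immediate early genes in every library, by group on the horizontal axis (control n = 3, NE n = 7, brimonidine n = 7), with a line at the group median. Fos is above all exposed libraries in each of the 3 controls, Nr4a1 overlaps only through NE 6 at 17.6, and Junb and Ier2 are lowest in control 2 at 26.9 and 32.0.

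The first comparison asked how the members stood 2 days after noise. Fos and Nr4a1 were lower in the NE group, and no member was higher. Dusp1 was lower by less than the minimum change. The other 6 members tested, Jun, Junb, Egr1, Egr3, Ier2 and Atf3, did not pass the test. A call required a limma p under 0.05 after adjustment over all 15950 genes tested and a log2 change of 1 or more in size. Thus 2 of 9 members tested were called, both lower, when 5.76% of all genes were called in either direction and 5.49% lower. All 9 also reached 1 FPKM in 3 or more NE libraries, so none was tested only through the controls, and among the 15003 genes of that kind 3.29% were called lower. The median log2 fold change of the members tested was -0.14, and that of all genes was -0.044. By the adjusted p alone 3 of 9 were lower, Dusp1 among them, when 12% of all genes were.

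Fos, the AP-1 subunit most often read as a mark of recent activity, had 17.1, 45.8 and 24.2 FPKM in control 1, 2 and 3, from 582 to 1634 fragments on the gene at chr12:85473890-85477273 (ENSMUSG00000021250). In the NE libraries it ran from 7.29 over a median of 10.7 to 12.5 FPKM. All 7 NE libraries lay below all 3 controls, a separation downward that 15% of all genes tested showed. The group means were 29.0 ± 14.9 FPKM (SD, n = 3) and 10.3 ± 1.84 FPKM (SD, n = 7), a 2.81-fold difference. On the log2(FPKM + 1) scale the change was -1.31 (SE 0.25, limma adjusted p = 0.00585), and the exact two-sided permutation test gave p = 0.00833, the smallest that 120 splits can give. Without control 2 the change was -0.93 with an adjusted p of 0.0132, below the minimum change for a call.

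Nr4a1 (ENSMUSG00000023034, chr15:101266846-101274792), a nuclear receptor that works without a known ligand, followed the same order over the controls, with 16.0 FPKM in control 1, 51.4 in control 2 and 30.0 in control 3. NE libraries ranged from 7.51 to 17.6 FPKM around a median of 10.4. Only NE 6, at 17.6 FPKM, reached above the lowest control, and the other 6 were below all controls. The means of 32.5 ± 17.8 FPKM (SD, n = 3) and 10.8 ± 3.19 FPKM (SD, n = 7) differed 3.00-fold, a log2 change of -1.39 (SE 0.31, limma adjusted p = 0.0127), and the exact permutation p was 0.0167. Without control 2 it was -0.995 with an adjusted p of 0.0595, and the call was lost, so that no member was called without that library.

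Dusp1 (ENSMUSG00000024190, chr17:26505590-26508519), which is induced by the same signals and removes phosphate from ERK, JNK and p38, had its highest value not in control 2 but in control 3. Its level was 25.4, 38.7 and 54.8 FPKM in control 1, 2 and 3 and ran from 14.2 over 20.6 to 26.9 FPKM in the NE group. The groups overlapped, with 5 of 7 NE libraries below all controls. The log2 change was -0.81 (SE 0.23, limma adjusted p = 0.0403), less than the minimum change, with an exact permutation p of 0.025. It was -0.80 without control 2 (adjusted p = 0.131), -0.55 without control 3 (adjusted p = 0.122) and -1.09 without control 1 (adjusted p = 0.0101), which made Dusp1 a call. Without NE 1, NE 3, NE 4, NE 5 or NE 7 the adjusted p was between 0.0574 and 0.0685, and it was 0.0768 after scaling by the median ratio.

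Fosb, a Fos relative that partners Jun proteins, was too low to be tested in the same fit, because only control 2 reached 1 FPKM. Its levels were 0.388, 1.31 and 0.538 FPKM in control 1, 2 and 3 and 0.164 to 0.464 FPKM in the NE libraries, on 13 to 124 fragments over all libraries. Of the 7 NE libraries, 6 were below all controls (exact permutation p = 0.0167). Fitted with no filter on low values, its log2 change was -0.43 with an adjusted p of 0.0986.

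The remaining AP-1 genes overlapped throughout. Jun, the partner of Fos proteins in AP-1, had 14.1, 19.7 and 28.5 FPKM in the controls and 12.0 to 24.2 FPKM in the NE libraries (log2 change -0.14, 95% interval from -0.65 to 0.38). Junb had 54.9, 26.9 and 85.5 FPKM in the controls and 45.8 to 96.5 in the NE libraries, and its lowest value of all 17 libraries was that of control 2. Its interval ran from -0.39 to 0.97, the widest upward reach among the members tested, and its estimate of 0.29 became -0.15 without control 2. Atf3, a stress-induced member of the ATF/CREB family, had 3.69, 6.61 and 7.65 FPKM in the controls and 4.82 to 6.97 in the NE libraries (95% interval from -0.30 to 0.45).

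Among the other regulators, Egr1, a zinc finger factor induced with Fos, had 7.37, 12.9 and 7.71 FPKM in the controls. NE libraries had 4.84 to 9.34 FPKM, and 5 of 7 were below all controls. Its log2 change of -0.40 had a limma adjusted p of 0.177 and a 95% interval from -0.83 to 0.027, and the change was -0.17 without control 2 (adjusted p = 0.665). Egr3, a relative of Egr1 that is often induced after it, had 3.20, 5.19 and 2.48 FPKM in the controls and 2.03 to 4.42 in the NE libraries (interval from -0.59 to 0.31). Ier2 had 55.3, 32.0 and 53.0 FPKM in the controls and 46.8 to 67.8 in the NE libraries, and again control 2 was the lowest of all libraries (interval from -0.20 to 0.55). Thus Fos, Nr4a1, Fosb, Egr1 and Egr3 peaked in control 2 among the controls, Junb and Ier2 had their minimum there, and Jun, Atf3 and Dusp1 lay between the other two controls.

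The libraries' makeup was set beside these values. Control 2 had the highest sum of cerebellar and hindbrain markers and the highest Fos, Nr4a1, Fosb, Egr1 and Egr3 of all 17 libraries. Among the controls it also had the highest sums for most other cell type lists. Control 1 and control 3 had nearly equal sums of these markers, 291 and 299 FPKM, but Nr4a1 was 16.0 and 30.0 FPKM and Dusp1 25.4 and 54.8 FPKM in them. Brimonidine 5, with a sum of 104 FPKM, had 8.66 FPKM of Fos, the median of its group, and 8.46 FPKM of Nr4a1. NE 1, whose sum of 34.4 FPKM was the highest in the NE group, had the lowest Fos, Nr4a1 and Dusp1 of that group. For neutrophil markers, control 2 with the lowest sum, 10396 FPKM, had the lowest Junb and Ier2, and NE 6 with the highest, 67982 FPKM, had the highest Junb and Ier2, at 96.5 and 67.8 FPKM. Brimonidine 2, with the next highest sum of 60544 FPKM, had 53.6 FPKM of Junb. The part of these markers in the members' differences was not tested.

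**Figure D2:**
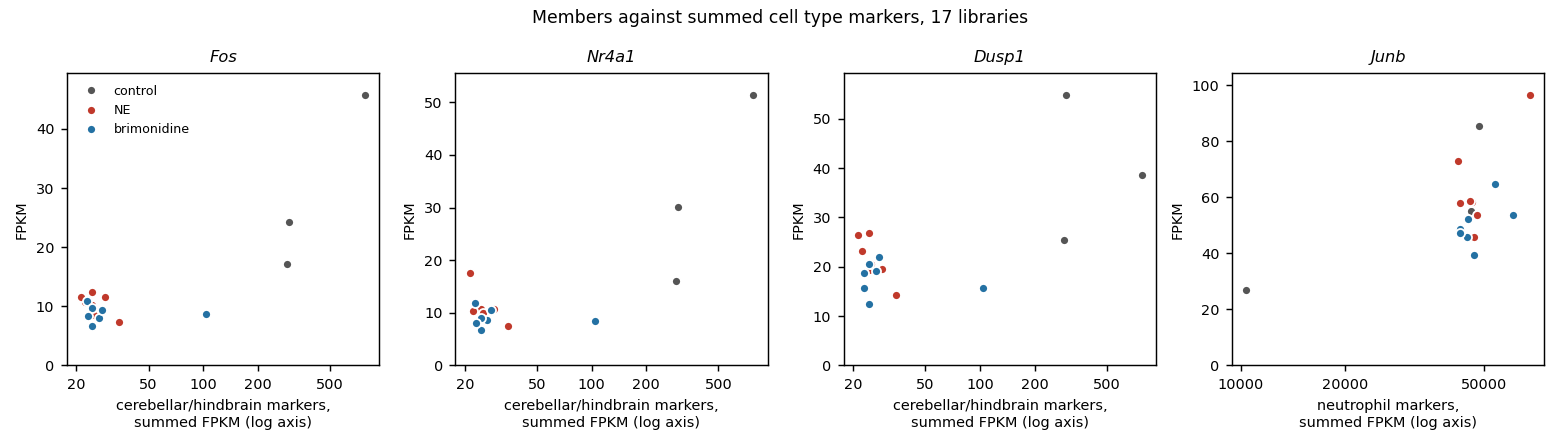
FPKM of Fos, Nr4a1 and Dusp1 (vertical axes, linear) against the summed FPKM of 15 cerebellar and hindbrain neuron markers (horizontal axis, log), and of Junb against the summed FPKM of 14 neutrophil markers (log), 1 point per library colored by group. The 3 controls stand at sums of 291, 299 and 780 FPKM, brimonidine 5 stands at 104 FPKM with unremarkable Fos, and control 2 stands alone at a neutrophil sum of 10396 FPKM.

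The second comparison asked whether brimonidine changed the members in noise-exposed cochleae. No member was called, with 0 of 9 past both thresholds, and 0% of all 15707 genes tested were called in limma. At an unadjusted p under 0.05 there were 2 members, Jun and Junb, when 5.77% of all genes were in that set, and a limma fit of the recovered fragments by voom also called 0. The log2 change was negative in 8 of 9 members tested, with a median of -0.20, whereas 42.3% of all genes tested had a negative change and their median was 0.015.

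Jun ran from 12.9 over 15.0 to 16.2 FPKM in the brimonidine group and from 12.0 over 17.3 to 24.2 FPKM in the NE group. Its values were the more tightly grouped under brimonidine, with an SD of 1.23 FPKM against 4.47 FPKM, and the range lay inside that of the NE group. The log2 change of -0.29 (SE 0.13) had an unadjusted limma p of 0.0381 and an adjusted p of 0.857, and the exact permutation p was 0.0664. Junb ran from 39.4 over 48.8 to 64.9 FPKM in the brimonidine group, against 45.8 over 58.1 to 96.5 in the NE group. Its log2 change of -0.30 (SE 0.14) had an adjusted p of 0.861 and an exact permutation p of 0.0664.

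None of the genes that were lower than control passed between the exposed groups. Fos ran from 6.59 over 8.66 to 10.9 FPKM with brimonidine, and its change against the NE group was -0.20 with a 95% interval from -0.44 to 0.039. Nr4a1 ran from 6.65 over 8.56 to 11.9 FPKM (interval from -0.53 to 0.093). Dusp1 ran from 12.5 over 18.8 to 21.9 FPKM (interval from -0.55 to 0.040). Egr3 was the member with a positive change, 0.16 (interval from -0.094 to 0.42), on levels of 2.74 to 4.44 FPKM. The intervals of all 9 members excluded a change of 1 in either direction, and the bound farthest from 0, that of Junb, was -0.60.

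The third comparison set brimonidine-treated, noise-exposed mice against the same 3 controls, so it shares those libraries with the first and does not stand apart from it. Fos, Nr4a1 and Dusp1 were called lower, 3 of 9 members tested, when 5.73% of all 15947 genes were called in either direction and 5.56% lower, or 3.28% of the genes that reached 1 FPKM in 3 or more brimonidine libraries, as all 9 members did. For each of the 3, all 7 brimonidine libraries were below all 3 controls, as for 14.3% of all genes, and each exact permutation p was 0.00833. The log2 change was -1.51 for Fos (SE 0.24, limma adjusted p = 0.0022), with means of 8.82 ± 1.37 against 29.0 ± 14.9 FPKM. It was -1.61 for Nr4a1 (SE 0.28, limma adjusted p = 0.00351), with means of 9.03 ± 1.74 against 32.5 ± 17.8 FPKM. Dusp1 changed by -1.07 (SE 0.22, limma adjusted p = 0.0085), with means of 17.8 ± 3.28 against 39.6 ± 14.7 FPKM.

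All 3 stayed past both thresholds without control 2, at -1.13 for Fos, -1.21 for Nr4a1 and -1.05 for Dusp1. Dusp1 fell short of the minimum change without control 3 (-0.81), without brimonidine 4 (-0.99) and after scaling by the median ratio (-0.97). Side by side, the change against control was -1.31 after noise alone and -1.51 with brimonidine for Fos, -1.39 and -1.61 for Nr4a1, and -0.81 and -1.07 for Dusp1. The difference between the exposed groups is the second comparison, in which none of the 3 passed. Jun (-0.42, adjusted p = 0.0967) and Egr1 (-0.47, adjusted p = 0.0937) did not pass against the control group. The change of Egr1 was -0.24 without control 2 (adjusted p = 0.381) and -0.60 without control 1 (adjusted p = 0.0493), and that of Jun -0.18 without control 3 (adjusted p = 0.328) and -0.66 without control 1 (adjusted p = 0.0078), all short of the minimum change. Fosb, at 0.117 to 0.738 FPKM in the brimonidine libraries, was again below the filter.

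**Figure D3:**
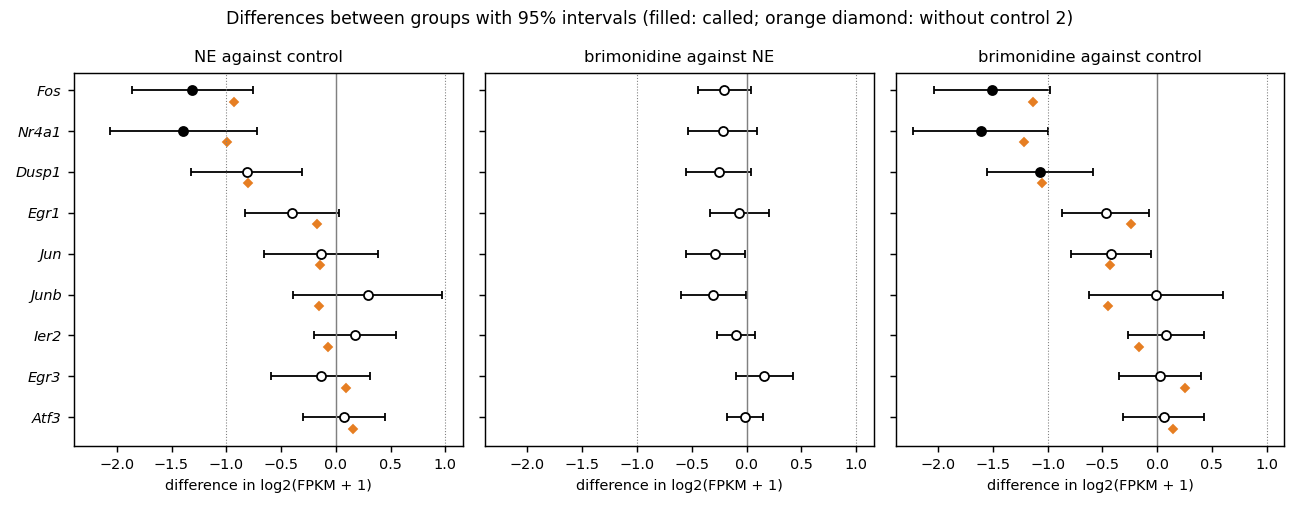
Difference in log2(FPKM + 1) with its 95% interval for the 9 members tested (rows) in the 3 comparisons (panels), filled where called, with dotted lines at a change of 1 in either direction and orange diamonds for the estimate without control 2. Fos and Nr4a1 are called against the control group in both exposed groups, Dusp1 only in the brimonidine group, and no member is called between the exposed groups.

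Of 23 further immediate early transcription factors, 21 reached 1 FPKM in 3 or more NE libraries, and 2 of these were called lower in the NE group and none higher, when 3.29% of all such genes were called lower. They were Nr4a2 and Nr4a3, the closest relatives of Nr4a1. Npas4, a factor induced by calcium in neurons, and Egr4 were also past both thresholds, but they passed the filter only through the 3 controls, where they were high, so their calls are given as values and not counted. Nr4a2 had 4.87, 18.6 and 7.15 FPKM in control 1, 2 and 3 and 1.28 to 2.43 FPKM in the NE libraries (log2 change -1.88, limma adjusted p = 0.00222). Nr4a3 had 2.07, 11.5 and 4.22 FPKM in the controls and 0.625 to 1.40 FPKM after noise. Npas4 had 1.54, 6.93 and 1.92 FPKM in the controls and 0.345 to 0.732 FPKM after noise. Egr4 had 1.19, 4.78 and 1.59 FPKM in the controls and at most 0.0531 FPKM in the NE group. In each of these 4 genes, the groups did not overlap and control 2 was the highest library. All 4 were named for being past both thresholds, which favors such a separation, and 15% of all genes tested showed it downward. Among the controls, control 2 also had the highest marker sum for every cell type list except neutrophils, macrophages and monocytes, and B and plasma cells.

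Without control 2, Nr4a2 (-1.38, adjusted p = 0.00141) and Nr4a3 (-1.04, adjusted p = 0.0171) remained called, and Egr4 and Npas4 no longer had 3 libraries at 1 FPKM. In the brimonidine group, 20 of the 23 reached 1 FPKM in 3 or more libraries, and 1 of them, Nr4a2, was called lower at -1.98, also without control 2 (-1.48), when 3.28% of all such genes were called lower. The change there was -1.79 for Nr4a3, -1.64 for Egr4 and -1.35 for Npas4, each tested only through the controls and below the filter without control 2. Myc, a growth-driving factor, went the other way, with 16.9, 9.07 and 11.8 FPKM in the controls and 16.1 to 21.8 FPKM in the NE libraries (log2 change 0.62, limma adjusted p = 0.0227, or 0.42 and 0.0969 without control 2), less than the minimum change. Against the NE group, 0 of 21 tested were called with brimonidine by limma or voom, and 6 of 21 had an unadjusted p under 0.05, beside 5.77% of all genes.

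Immediate early genes that encode secreted, signaling or structural proteins gave no calls. Of 35 such genes, 31 were tested and 0 were called in any of the 3 comparisons by limma or by voom, with 7 of 31 at an unadjusted p under 0.05 for NE against control, when 32.9% of all genes were, and 7 of 31 for brimonidine against NE, when 5.77% of all genes were. The 3 with the largest change in the NE group were Socs3, an inhibitor of cytokine signaling, at 0.90 (adjusted p = 0.222), the kinase Pim1 at 0.88 (adjusted p = 0.092) and the growth arrest gene Gadd45b at 0.40 (adjusted p = 0.234). All 3 had their lowest level in control 2, for Socs3 8.18 FPKM against 33.8 in control 1 and 64.9 in control 3. Arc, Bdnf, Nptx2 and Rgs1 were below the filter, and Arc reached 2.37 FPKM in the highest control and 0.654 in the highest NE library.

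Among 14 MAP kinase phosphatases and feedback inhibitors tested beside Dusp1, 2 were called lower in the NE group, Dusp5, a nuclear phosphatase of ERK, and Dusp8, a phosphatase of JNK and p38, when 5.49% of all genes were called lower. By the adjusted p alone 4 were lower, when 12% of all genes were, and 1 was higher, as were 338 of all 15950 genes. The list's median change was -0.47. Dusp5 had 11.4, 26.5 and 12.3 FPKM in the controls and 4.29 to 7.12 FPKM after noise (log2 change -1.46, limma adjusted p = 0.0017). Dusp8 had 5.47, 14.0 and 5.09 FPKM in the controls and 1.25 to 1.98 FPKM after noise (log2 change -1.69, limma adjusted p = 0.00119). Both were called against control with brimonidine too, at -1.62 and -1.72, and both remained called without control 2, at -1.09 and -1.27 in the NE group and -1.25 and -1.30 with brimonidine. The other 2 that were lower by the adjusted p alone were Spred1 (-0.57, limma adjusted p = 0.0373) and Spred2 (-0.53, limma adjusted p = 0.0316), inhibitors of the Ras to ERK pathway, and neither passed without control 2 (-0.33 with an adjusted p of 0.124 and -0.31 with 0.0935). Dusp6, the cytoplasmic phosphatase of ERK, was higher by less than the minimum change, from 14.2 to 16.4 FPKM in the controls to 19.2 to 27.0 FPKM after noise (0.40, limma adjusted p = 0.0344, or 0.34 and 0.137 without control 2).

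Upstream of the members, 1 of 17 activators and 1 of 24 kinase cascade genes tested were called lower in the NE group, beside 5.49% of all genes. Among the activators, Crtc1, a coactivator of CREB, was called lower in the NE group at 1.57 to 2.80 FPKM against 5.29, 10.7 and 5.16 in the controls (-1.14, limma adjusted p = 0.00342), and it was not called without control 2 (-0.83). In the ERK, JNK and p38 cascades, Mapk10, the JNK gene used mainly in neurons, was called lower at 0.737 to 1.97 FPKM against 3.69, 9.59 and 3.94 (-1.46, limma adjusted p = 0.00317), also without control 2 (-1.08). Of 13 AP-1 and ATF partners tested, 0 were called by limma or voom. For NE against control, 4 of these 13 had an unadjusted p under 0.05, beside 32.9% of all genes. The counts were 8 of 17 activators, 6 of 24 kinase cascade genes and 9 of 14 phosphatases and feedback inhibitors. They were 9 of 23 for the immediate early transcription factors, with Npas4 and Egr4, tested only through the controls, among the 23. Between the brimonidine and NE groups, 0 of the 120 genes tested in these 6 lists were called by limma or voom. An unadjusted p under 0.05 was found for 16 of the 120, beside 5.77% of all genes, and 6 and 7 of these were in the lists of immediate early genes given above.

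**Figure D4:**
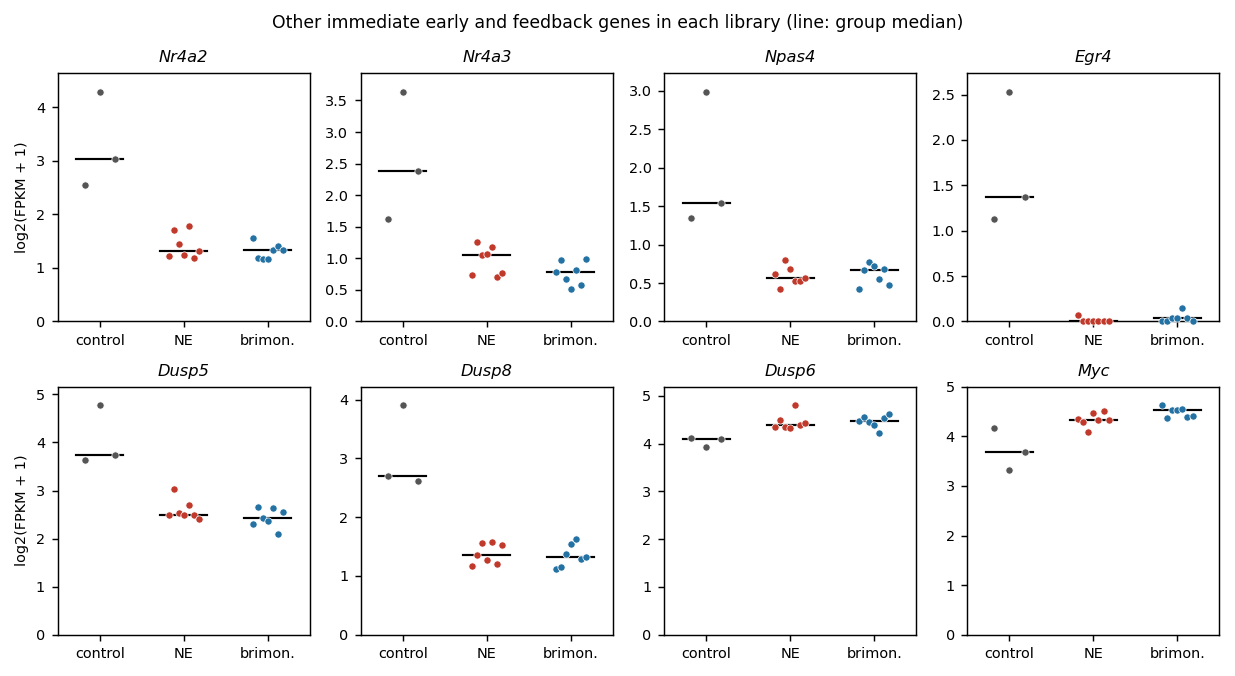
Level in log2(FPKM + 1) (vertical axis) of 8 other immediate early and feedback genes in every library, by group, with a line at the group median. Nr4a2, Nr4a3, Npas4, Egr4, Dusp5 and Dusp8 lie below all 3 controls in all 14 exposed libraries, and control 2 is the highest library for each of these 6, while Dusp6 lies above all controls in all 14. Of all genes tested, 15% lay below all controls in every NE library and 14.3% in every brimonidine library.

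Within the exposed mice the members varied together in part. Over the 14 noise-exposed libraries, Pearson's r of log2(FPKM + 1) was computed for all 45 pairs with permutation p values adjusted over the 45. It was above 0 for 35 pairs, with a median of 0.44, and 15 pairs passed at an adjusted p under 0.05, of which 13 were positive. All libraries share the scaling by their own total, which can move genes together. Junb and Ier2 had the highest r, 0.87 (Spearman's rho 0.77, adjusted permutation p = 0.00321 and 0.00824), with 0.84 within the NE group, 0.92 within the brimonidine group and 0.84 without the 2 libraries farthest from the median of Junb. Fos and Jun had an r of 0.84 (rho 0.87, adjusted permutation p = 0.0027 and 0.00165), with 0.89 and 0.71 within the groups and 0.84 without the 2 farthest. Fos and Nr4a1 had an r of 0.79 (rho 0.89, adjusted permutation p = 0.00321 and 0.000675), with 0.65 and 0.92 within the groups and 0.77 without the 2 farthest.

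Egr3 was negatively correlated with Ier2 and Junb. Its r with Ier2 was -0.81 (rho -0.84, adjusted permutation p = 0.0027 and 0.00351), with -0.77 within the NE group, -0.82 within the brimonidine group and -0.69 without the 2 farthest libraries. With Junb it was -0.72 (rho -0.69, adjusted permutation p = 0.0129 and 0.0279), with -0.69 and -0.62 within the groups and -0.53 without the 2 farthest. In NE 6, where Junb and Ier2 had their highest values, Egr3 had its lowest, 2.03 FPKM. The correlation of Junb and Jun, 0.78 over the 14, was 0.81 within the NE group but 0.33 within the brimonidine group. That of Nr4a1 with Ier2, 0.63, was 0.062 without the 2 farthest libraries, so it rested on those 2.

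**Figure D5:**
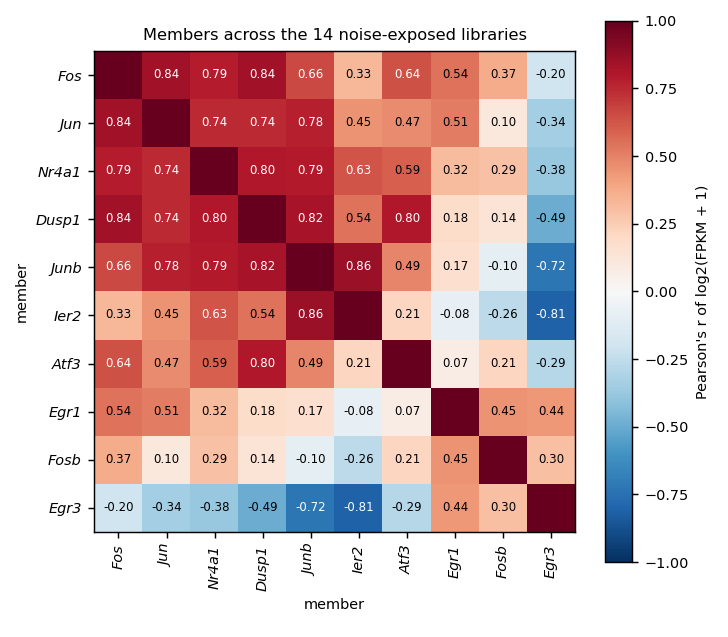
Pearson's r of log2(FPKM + 1) between members (both axes) over the 14 noise-exposed libraries, from blue at -1 to red at 1. Fos, Jun, Nr4a1, Dusp1 and Junb form a block with r from 0.66 to 0.84, Junb and Ier2 reach 0.87, and Egr3 is negative against Junb at -0.72 and Ier2 at -0.81.

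The genes most like the mean of the members were found by Pearson's r with the mean of their standardized values, as a description. Not all members followed that mean. Over the 17 libraries the r of a member with the mean of the other 9 was 0.88 for Dusp1, 0.85 for Nr4a1, 0.81 for Fos and 0.78 for Jun, but 0.047 for Junb, -0.19 for Egr3 and -0.29 for Ier2, and over the 14 exposed libraries it ran from -0.38 for Egr3 to 0.91 for Fos. Over the 14 exposed libraries, among 12902 genes at 1 FPKM or more in each, the genes most like the mean included the water channel Aqp5 (0.89), the aldo-keto reductase Akr1b8 (0.87), the prostaglandin E synthase Ptges (0.87) and the granulocyte growth factor Csf3 (0.86). Csf3 ran from 2.10 to 10.1 FPKM. Over all 17 libraries, among 12669 genes, they were Sox2 (0.92), a factor of cochlear supporting cells, Dnajc24 (0.89), the cAMP phosphodiesterase Pde4b (0.88), Rdh10 (0.88) and Efemp2 (0.87). The lists did not overlap, and the second rests in part on the difference between the controls and the exposed libraries.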

How the data were processed

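RNA from the cochlea of 17 mice was sequenced as stranded mRNA libraries on a NovaSeq instrument. For 35285 genes FPKM values were deposited by the authors, with no further scaling between libraries. The submitters' processing notes name Trimmomatic, HISAT2, Cufflinks and HTSeq and the build mm10 without versions. Fragments were recovered from the FPKM steps for 34973 of 35029 genes above 0 (99.8%, within 0.01 of a whole fragment), which gave the depths.

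The main test was limma 3.58.1 (R 4.3.3), with a trend, on log2(FPKM + 1) of genes at 1 FPKM or more in 3 or more of the libraries in a fit, a scale that understates the change of low genes, with 2 groups per fit and Benjamini-Hochberg adjustment over all genes. The study's own count test was not run, and recovered fragments were fitted by voom as an alternative. Single members were also compared with exact two-sided permutation tests, and pairs with 100000 resamples, in Python 3.11.15 and scipy 1.17.1. The fit was tested on simulated data. The members and the gene lists were chosen with earlier results of these data known. Named were all members, list genes that were called, the 3 largest changes or those not detected where a list was described, and the 5 genes most like the members, of which not all are reported here; all other names were chosen after their values were seen. Replicates were mice, numbered as in the labels.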

Additional observations from a re-analysis of the deposited data

Results flagged for a closer look

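In groups of 7 libraries, the highest or lowest value was set against the range of its group by Dixon's criterion for each of the 10 members, and 4 of the 20 groups tested held a library past the 95% value, where chance gives about 1 in 20. Fosb was 0.738 FPKM in brimonidine 1, with 0.117 to 0.259 in the other 6 libraries of that group. Egr1 in the same library was 9.24 FPKM, with 5.43 to 6.60 in the others. Nr4a1 was 17.6 FPKM in NE 6, with 7.51 to 10.7 in the other 6, and Ier2 in NE 6 was 67.8 FPKM, with 46.8 to 53.1 in the others.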

How the results depend on the processing

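Against the control group, the number of members called in the NE group was 0 to 3 when each library was left out in turn, 0 without control 2 and 3 without control 1. In the brimonidine group it was 2 to 3. The replicate number did not pair the libraries, since the correlations of same-numbered libraries were between -0.22 and 0.083, and 1 of 3 NE libraries and 0 of 3 brimonidine libraries correlated best with their own number. With a replicate block, 0 members were called in the NE group (Fos -1.36 and Nr4a1 -1.60, both with a limma adjusted p of 0.205) and 0 in the brimonidine group against control, where Egr3 became -0.020 and Junb 0.14, and all calls over all genes fell from 918 to 0 and from 913 to 236. Without control 2, the calls over all genes fell to 340 lower and 28 higher in the NE group and 450 lower and 18 higher in the brimonidine group.

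For single members, 531 alternative values kept their direction and whether they were called, although in 17 of these the adjusted p moved across 0.05, and 10 lost a call, 3 gained one and 32 changed sign, none of these in a member that was called. These counts include the main fit read by the adjusted p alone, whose estimate cannot move and which gave a gained call for Dusp1 in the NE group. They also include the fit of all 17 libraries in 1 model, which keeps the estimate and alters only its spread. With array weights the change in the NE group was -0.19 for Atf3, 0.23 for Egr3, -0.082 for Ier2, -0.46 for Junb (adjusted p = 0.0404) and -0.56 for Jun (adjusted p = 0.0417), and Dusp1 was called at -1.25. In the brimonidine group against control it was -0.22 for Atf3 and -0.16 for Ier2, and short of the minimum change for Jun (-0.81, adjusted p = 0.000567), Junb (-0.73, adjusted p = 0.00164) and Egr3 (0.39, adjusted p = 0.0111). Quantile normalization gave 0.078 for Egr3 in the NE group. Scaling by the median ratio moved the median of all genes in the NE group from -0.044 to 0.057 and gave 0.090 for Junb and -0.97 for Dusp1, no longer a call, in the brimonidine group against control. Equal totals gave 0.0064 for Atf3 between the exposed groups. The cause of these changes was not tested.

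With each library left out, the ranges of members that changed sign in the NE group were -0.37 to 0.11 for Jun, -0.15 to 0.67 for Junb, -0.32 to 0.092 for Egr3, -0.071 to 0.31 for Ier2 and -0.19 to 0.25 for Atf3. In the brimonidine group against control they were -0.45 to 0.36 for Junb, -0.16 to 0.25 for Egr3, -0.17 to 0.22 for Ier2 and -0.20 to 0.24 for Atf3, and between the exposed groups -0.15 to 0.0066 for Egr1 and -0.062 to 0.021 for Atf3. Having only 3 control libraries limits each comparison with them, and Fosb, with 13 to 83 fragments in the exposed libraries, was near the limit of detection.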
